A study of Mus musculus with 8 samples.

Results

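The mitosis genes described here are 35 mouse genes whose products act while a cell divides: mitotic kinases, cyclins and their activators, spindle motors and microtubule binders, kinetochore and centromere proteins, and factors of mitotic exit and cytokinesis. They were chosen by name, with earlier results of these data known. The probe with the highest mean over the 8 arrays stood for each gene. Probes named 30 of the 35, among 16593 genes named in the whole series. Mki67, Ccnb1, Aurkb, Ncapg and Racgap1 were named by no probe in the annotation used and were not analysed here. A filter on dim probes kept 20 of the 30, so every count and median below covers those 20 and not the full set.

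RNA came from whole melanomas of C57BL/6 mice and was read on Illumina bead arrays, with 2 samples in each of 4 groups. Animals of every group carried BrafCA, which turns on an activated Braf kinase, and Tyr::CreER, a tamoxifen-inducible recombinase made in melanocytes, and 4-hydroxytamoxifen was painted on newborn skin. The SA groups also carried Ifnar1SA, an allele of the type I interferon receptor known to resist degradation, and their tumours were taken at day 20, 38 or 60 after tamoxifen. The WT group carried Ifnar1+/+ and was taken at day 38. Nothing in the labels says that replicates are different animals, so a p-value here reflects how far these particular samples spread, which may be technical. A whole melanoma gives a mixed RNA of tumour and whatever skin was taken with it, and fewer dividing cells cannot be told apart from less mitotic RNA per cell.

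Mitotic genes are transcribed late in the cell cycle, in G2 and M phase, and their transcripts decline as the cell leaves mitosis. Many of them share a promoter design in which the MuvB core binds a short element called the cell cycle genes homology region (CHR). With the pocket proteins it forms the DREAM repressor in resting cells, and with B-Myb and FoxM1 an activator in dividing cells, often with NF-Y at CCAAT boxes close by. In skin the growing hair bulb is a major site of normal division, while in melanoma mitotic transcripts track the dividing fraction of the tumour.

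The shared promoter design was read first, and its part in the pattern across the arrays was not tested. RefSeq promoter windows of assembly GRCm38.p6, each 300 bases long from 250 before to 50 after an annotated start, were matched for 28 of the 35 genes in 30 windows. TTTGAA or TTCGAA, the CHR letters, stood on either strand in 24 of the 30 windows (80.0%), against 19.2% of 32851 windows of all genes. CCAAT stood on either strand in 86.7% of the mitosis windows, against 37.4% of all windows. Both motifs stood together in 76.7% of the mitosis windows, against 7.52% of all windows. With only the first window of each gene, the CHR letters lay within 50 bases of the start in 20 of the 28 genes. The share of all 32851 windows, counted by window and not by gene, was 5.31%. A match describes letters and not binding. The CHR share was 82.4% of 17 windows among genes above the dim-probe filter and 77.8% of 9 windows among those below it.

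**Figure D1:**
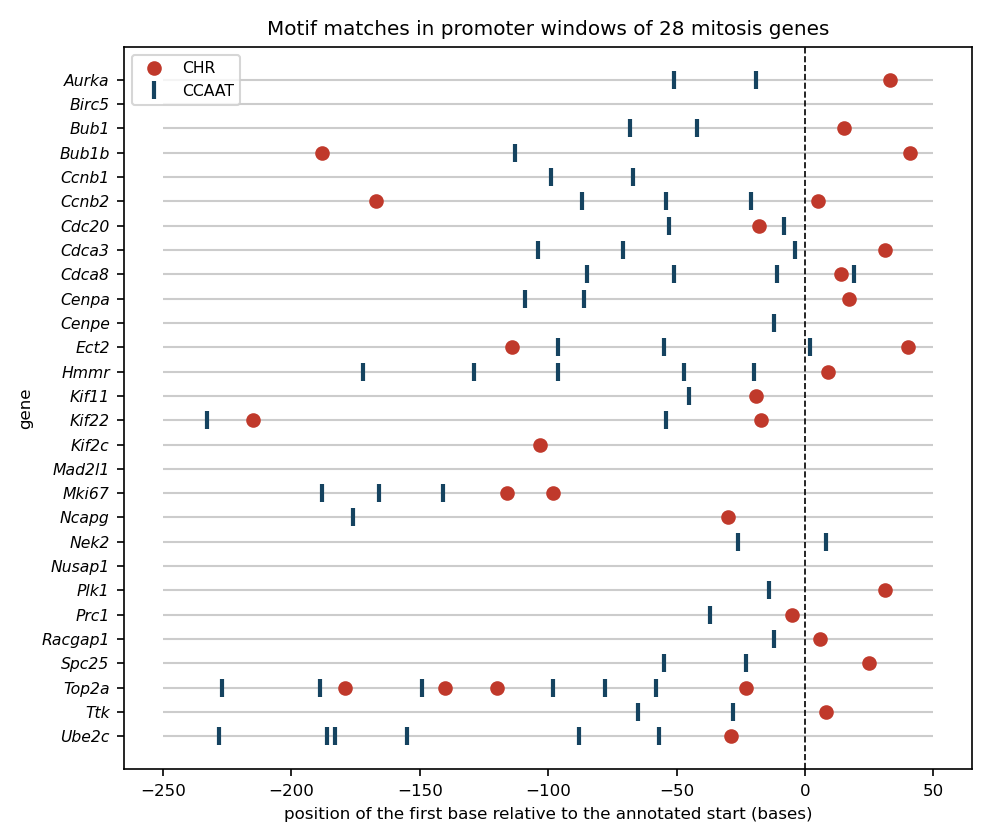
Position of each motif match in the promoter windows of 28 mitosis genes, in bases from the annotated start (dashed line). Red circles are TTTGAA or TTCGAA on either strand and blue bars are CCAAT on either strand; the circles crowd around the start, and Nusap1, Mad2l1 and Birc5 have neither motif.

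The windows of the 6 genes with the smallest p over the 4 groups are shown, 5′ to 3′ on the coding strand. Capitals mark the CHR and CCAAT matches of either strand, and a match on the opposite strand shows its reverse complement. Cdca8 lies at chr4:124936868-124937167 on the minus strand, Kif11 at chr19:37376132-37376431 on the plus strand, and Cdca3 at chr6:124829926-124830225 on the plus strand. Prc1 lies at chr7:80294201-80294500, Nusap1 at chr2:119618048-119618347 and Bub1b at chr2:118597961-118598260, all on the plus strand.
Cdca8: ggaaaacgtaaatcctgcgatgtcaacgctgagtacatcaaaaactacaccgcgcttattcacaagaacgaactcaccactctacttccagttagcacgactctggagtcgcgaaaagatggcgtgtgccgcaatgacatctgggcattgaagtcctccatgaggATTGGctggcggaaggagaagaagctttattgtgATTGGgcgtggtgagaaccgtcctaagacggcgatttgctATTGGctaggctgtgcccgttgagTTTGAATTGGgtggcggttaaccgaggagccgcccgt
Kif11: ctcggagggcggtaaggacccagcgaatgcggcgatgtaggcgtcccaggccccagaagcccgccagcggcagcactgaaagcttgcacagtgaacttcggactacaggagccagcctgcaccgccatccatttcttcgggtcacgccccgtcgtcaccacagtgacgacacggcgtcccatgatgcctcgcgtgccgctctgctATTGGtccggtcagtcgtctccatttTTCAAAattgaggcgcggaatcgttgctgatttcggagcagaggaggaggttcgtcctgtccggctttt
Cdca3: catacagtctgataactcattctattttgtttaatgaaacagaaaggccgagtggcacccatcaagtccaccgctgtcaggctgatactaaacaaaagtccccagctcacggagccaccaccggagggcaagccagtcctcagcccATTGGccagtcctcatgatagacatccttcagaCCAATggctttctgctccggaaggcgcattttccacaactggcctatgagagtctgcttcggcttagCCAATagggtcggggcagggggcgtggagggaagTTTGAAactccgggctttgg
Prc1: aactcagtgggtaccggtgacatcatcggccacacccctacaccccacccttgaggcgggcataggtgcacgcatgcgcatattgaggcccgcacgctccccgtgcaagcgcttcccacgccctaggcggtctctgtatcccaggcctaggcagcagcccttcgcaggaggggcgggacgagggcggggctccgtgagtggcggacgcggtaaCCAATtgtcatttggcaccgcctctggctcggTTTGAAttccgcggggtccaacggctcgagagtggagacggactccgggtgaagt
Nusap1: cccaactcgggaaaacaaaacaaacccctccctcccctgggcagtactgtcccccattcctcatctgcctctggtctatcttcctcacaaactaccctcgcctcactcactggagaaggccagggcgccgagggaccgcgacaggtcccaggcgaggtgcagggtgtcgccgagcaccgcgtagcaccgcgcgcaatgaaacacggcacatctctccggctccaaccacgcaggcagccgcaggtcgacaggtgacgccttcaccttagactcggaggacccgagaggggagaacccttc
Bub1b: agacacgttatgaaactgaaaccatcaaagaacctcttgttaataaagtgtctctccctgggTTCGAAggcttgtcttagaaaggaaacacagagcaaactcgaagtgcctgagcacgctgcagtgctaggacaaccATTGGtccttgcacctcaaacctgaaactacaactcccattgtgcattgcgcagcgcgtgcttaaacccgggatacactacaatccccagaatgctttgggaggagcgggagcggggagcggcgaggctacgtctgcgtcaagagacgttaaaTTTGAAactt
Positions are given for the first base of a match, with the annotated start as 1 and no position 0. In Cdca8 the CHR match stood at 14 and overlapped a CCAAT match of the opposite strand at 19, which reads as 1 run of capitals. In Kif11 the CHR match, on the opposite strand, stood at -19, with CCAAT at -45. Prc1 had CHR at -5 and CCAAT at -37 in the window shown, and at -30 and -62 from another annotated start. Cdca3 had CHR at 31. Bub1b had TTCGAA at -188 and TTTGAA at 41. Nusap1 had neither in this window, which says nothing of what binds there.

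The 20 genes kept nearly 1 pattern across the arrays. The lowest group mean was that of SA day 60 for 19 of the 20, and the highest was that of SA day 38 for 16 and of WT for 4 (Spc25, Tpx2, Foxm1 and Mad2l1). Over the 8 arrays the 190 pairs of genes had a median Pearson r of 0.94, and 147 pairs lay above 0.9. These correlations are a description, since all genes share the same 8 arrays. Foxm1, the forkhead activator of G2 and M genes, stood apart, with an r of 0.48 against the mean of the other genes. Without it the lowest r of any pair was 0.73, against 0.25 with it.

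**Figure D2:**
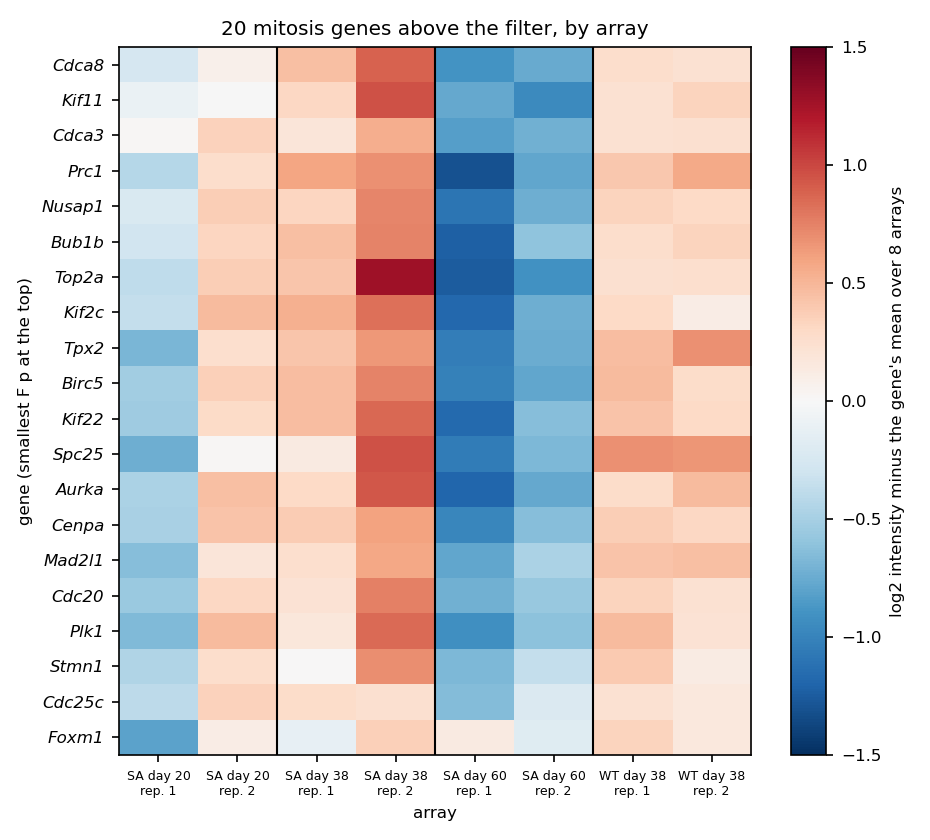
Log2 intensity of 20 mitosis genes on each of the 8 arrays, minus the gene's mean over the arrays (red higher, blue lower). SA day 60 is lowest for 19 of 20 genes, SA day 38 replicate 2 is the highest array for 18, and Foxm1 at the bottom does not share the pattern.

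Replicates moved together as well. In SA day 20 tumours replicate 2 lay above replicate 1 for all 20 genes, with a median gap of 0.79 log2 units, against 0.27 for all genes tested. The median gap was 0.40 in SA day 38, 0.33 in SA day 60 and 0.11 in WT tumours, against 0.24, 0.23 and 0.15 for all genes. SA day 38 replicate 2 was the highest array for 18 genes and SA day 60 replicate 1 the lowest for 18. In the SA groups the replicates thus lay apart in the same direction for at least 18 of the 20 genes, and the genes cannot be counted as separate witnesses of a group difference. In WT the signed median gap was -0.04, with no shared direction.

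Sex also differed between groups. Xist, which is made from the inactive X chromosome, had mean log2 intensities of 7.20 ± 0.13, 9.44 ± 0.35 and 7.20 ± 0.51 in SA tumours at days 20, 38 and 60, and 7.00 ± 0.07 in WT tumours (SD, n = 2 each). The Y-linked gene Eif2s3y had 11.46 ± 0.13, 6.15 ± 0.06 and 11.75 ± 0.07 at those days and 11.70 ± 0.08 in WT. SA day 38 tumours carried the female pattern and the other groups the male one, so in each comparison with SA day 38 the genotype or day cannot be told apart from sex. Comparisons of SA day 60 with SA day 20, and of SA days 20 and 60 with WT, hold male patterns alone.

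The largest differences were between SA tumours at day 60 and day 38. Cdca8, borealin of the chromosomal passenger complex, and Kif11, the motor that drives spindle poles apart, fell to lower levels at day 60, by 1.50 on the log2 scale each. All 20 genes had a log2 difference below 0, against 46.3% of the 11661 genes and unnamed probes tested, and the median was -1.44, against 0.04 for all. Of the 20, 2 passed an adjusted p of 0.05 in the lower direction, where 0.377% of all genes did, and 0 passed in the higher direction, where 0.712% did. At an unadjusted p of 0.05, 19 of 20 were lower, against 11% of all genes, and 0 higher, against 15.1%. Both SA day 60 arrays lay below both SA day 38 arrays for 19 of 20, against 25% of all genes. The exception in both counts was Foxm1.

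**Figure D3:**
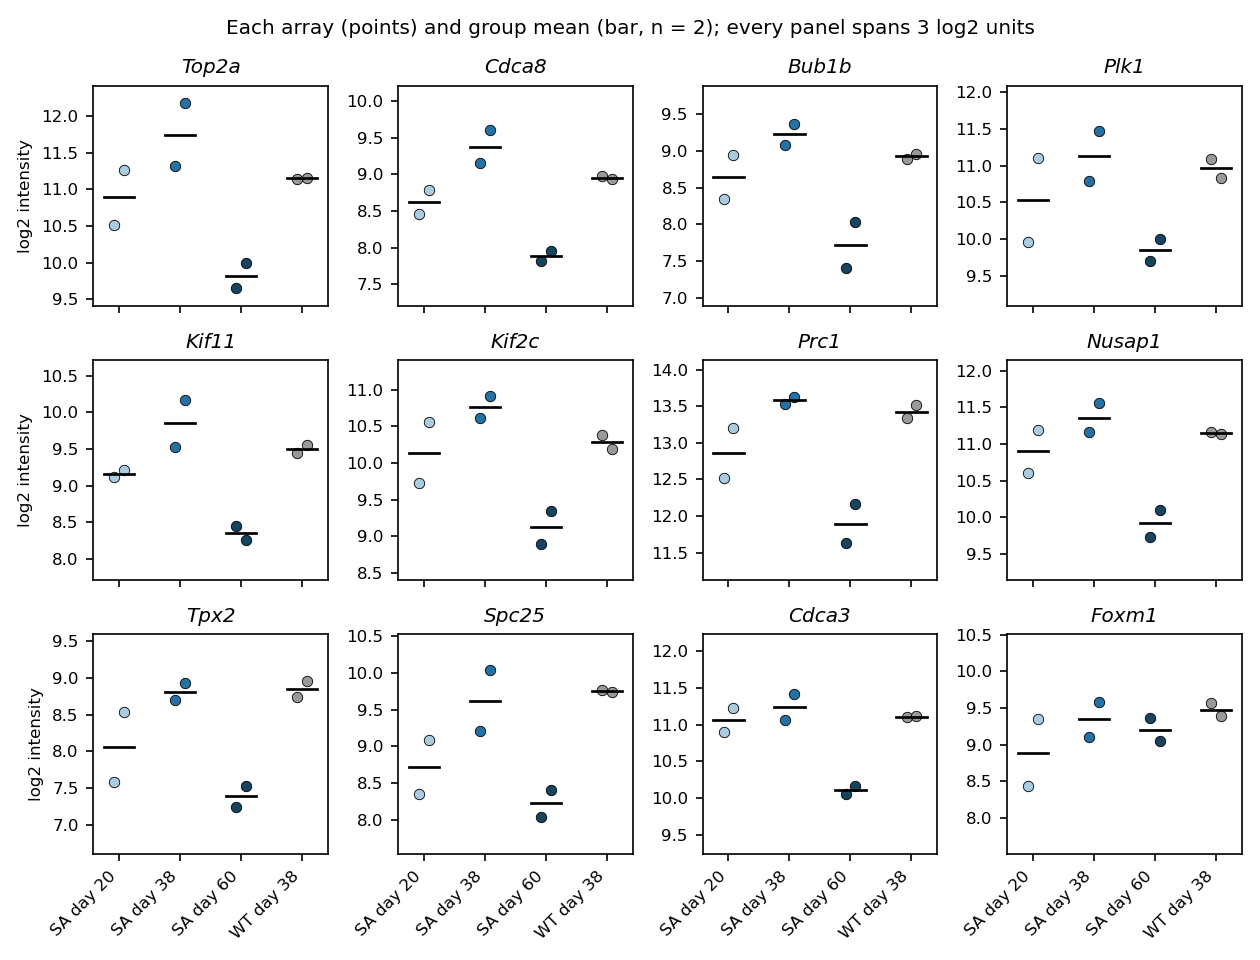
Log2 intensity on each array (points) and group mean (bars, n = 2) for 12 mitosis genes; every panel spans 3 log2 units. In 11 panels both SA day 60 points lie below both SA day 38 points, and in the Foxm1 panel they overlap.

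Passenger complex and kinetochore genes were read at each array in turn. Cdca8 had log2 intensities of 8.46 and 8.79 at day 20, 9.16 and 9.60 at day 38 and 7.81 and 7.96 at day 60 in SA tumours, and 8.97 and 8.93 in WT tumours. The day 60 arrays lay below all 6 others and the day 38 arrays above them. The day 60 minus day 38 difference was -1.50 (SE 0.20, limma adjusted p = 0.0420), a 2.82-fold lower intensity. Birc5, survivin of the same complex, differed by -1.50 (SE 0.30, limma adjusted p = 0.0579) and missed the threshold.

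Spc25, a subunit of the Ndc80 complex that ties kinetochores to microtubules, had 8.35 and 9.09 at day 20, 9.21 and 10.04 at day 38 and 8.03 and 8.41 at day 60, and 9.76 and 9.75 in WT. The day 60 values overlapped those of day 20 and lay below both day 38 and both WT values. The day 60 minus day 38 difference was -1.40 (SE 0.35, limma adjusted p = 0.0797). Cenpa, the histone that marks centromeres, differed by -1.30 (SE 0.31, limma adjusted p = 0.0722).

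Among the motors, Kif11 had 9.11 and 9.21 at day 20, 9.53 and 10.18 at day 38 and 8.45 and 8.25 at day 60 in SA tumours, and 9.44 and 9.55 in WT tumours. Both day 60 arrays lay below every other array, while day 38 overlapped WT. The day 60 minus day 38 difference was -1.50 (SE 0.23, limma adjusted p = 0.0447), or 2.83-fold lower. Kif2c, which takes microtubules apart at kinetochores, had 9.72 and 10.56, then 10.62 and 10.91, then 8.90 and 9.35 at days 20, 38 and 60, and 10.38 and 10.20 in WT. Its day 60 arrays were again the lowest 2, with a difference from day 38 of -1.64 (SE 0.31, limma adjusted p = 0.0561). Kif22, a motor that pushes chromosome arms toward the cell's middle, had 10.62 and 11.44, 11.63 and 12.02, and 10.00 and 10.52 at those days, and 11.58 and 11.46 in WT. Its day 60 arrays were the lowest 2 and its difference from day 38 was -1.56 (SE 0.32, limma adjusted p = 0.0590).

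Spindle and midzone genes came next. Prc1, which bundles the microtubules of the central spindle, had 12.51 and 13.21 at day 20, 13.53 and 13.63 at day 38 and 11.63 and 12.16 at day 60, and 13.34 and 13.51 in WT. The day 60 arrays were the lowest 2, and day 38 lay just above WT. Its day 60 minus day 38 difference was -1.68 (SE 0.28, limma adjusted p = 0.0516). Nusap1, which binds microtubules around chromosomes, had 10.61 and 11.20, 11.16 and 11.56, and 9.73 and 10.10 at days 20, 38 and 60, and 11.17 and 11.13 in WT. Day 60 lay below all other arrays, by -1.44 from day 38 (SE 0.26, limma adjusted p = 0.0544). Tpx2, which activates Aurora A on the spindle, had 7.59 and 8.53, 8.70 and 8.93, and 7.24 and 7.53 at those days, and 8.74 and 8.96 in WT. Its day 60 arrays were the lowest 2, day 20 lay below day 38 and WT, and day 38 overlapped WT. The day 60 minus day 38 difference was -1.43 (SE 0.32, limma adjusted p = 0.0666). Stmn1, which binds free tubulin, overlapped between days 60 and 20 and differed by -0.87 from day 38 (SE 0.32, limma adjusted p = 0.155).

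Of the kinases, Plk1, which acts from mitotic entry to cytokinesis, had 9.96 and 11.10 at day 20, 10.79 and 11.47 at day 38 and 9.70 and 10.00 at day 60, and 11.09 and 10.83 in WT. Day 20 spread from the day 60 level to the top of the WT range, and day 60 lay below day 38 and WT. The day 60 minus day 38 difference was -1.28 (SE 0.40, limma adjusted p = 0.115). Bub1b, the BubR1 protein of the spindle checkpoint, had 8.34 and 8.95, 9.09 and 9.37, and 7.41 and 8.03 at days 20, 38 and 60, and 8.90 and 8.97 in WT. The day 60 arrays were the lowest 2, and the difference from day 38 was -1.51 (SE 0.28, limma adjusted p = 0.0560). Aurka, the Aurora kinase of centrosomes, differed by -1.59 (SE 0.36, limma adjusted p = 0.0690).

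Genes of entry and exit and Top2a, the topoisomerase that untangles sister chromatids, completed the set. Top2a had 10.51 and 11.26 at day 20, 11.32 and 12.17 at day 38 and 9.65 and 9.99 at day 60, and 11.15 and 11.15 in WT. It had the largest day 60 minus day 38 difference of the 20, -1.93 (SE 0.35, limma adjusted p = 0.0551), with day 60 below every other array. Cdca3, a cofactor of ubiquitination that promotes mitotic entry, had 10.90 and 11.22, 11.06 and 11.42, and 10.05 and 10.16 at days 20, 38 and 60, and 11.11 and 11.12 in WT. Its day 60 arrays lay below the other 6, which overlapped among groups, and the difference from day 38 was -1.14 (SE 0.19, limma adjusted p = 0.0516). Cdc20 and Mad2l1, the activator of the anaphase-promoting complex and its checkpoint inhibitor, differed by -1.14 and -1.04 (limma adjusted p = 0.0925 for each). Cdc25c, the phosphatase that activates Cdk1, differed by -0.69 (SE 0.27, limma adjusted p = 0.168).

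Foxm1 did not share this. It had 8.43 and 9.34 at day 20, 9.11 and 9.59 at day 38 and 9.36 and 9.04 at day 60, and 9.56 and 9.39 in WT. The day 38 values overlapped every other group, and day 20 and day 60 overlapped each other and lay below WT. The day 60 minus day 38 difference was -0.15 (95% interval -0.94 to 0.65, limma adjusted p = 0.814). A second Foxm1 probe differed by -0.47.

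The 2 calls depended on which arrays were used. Cdca8 and Kif11 lost the call when any single array of WT, SA day 38 or SA day 60 was left out, with adjusted p up to 0.169 for each, and kept it when a day 20 array was left out, where 17 of the 20 genes passed. Leaving out a day 20 array leaves these log2 differences as they were and changes only the shared estimate of spread. The median of the 20 ranged from -1.64 without SA day 38 replicate 1 to -1.22 without SA day 38 replicate 2. With no filter, with the 4 compared arrays alone, and with the replicate number as a block, 0 of the genes passed, and the limma adjusted p of Cdca8 was 0.0750, 0.0646 and 0.0542.

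**Figure D4:**
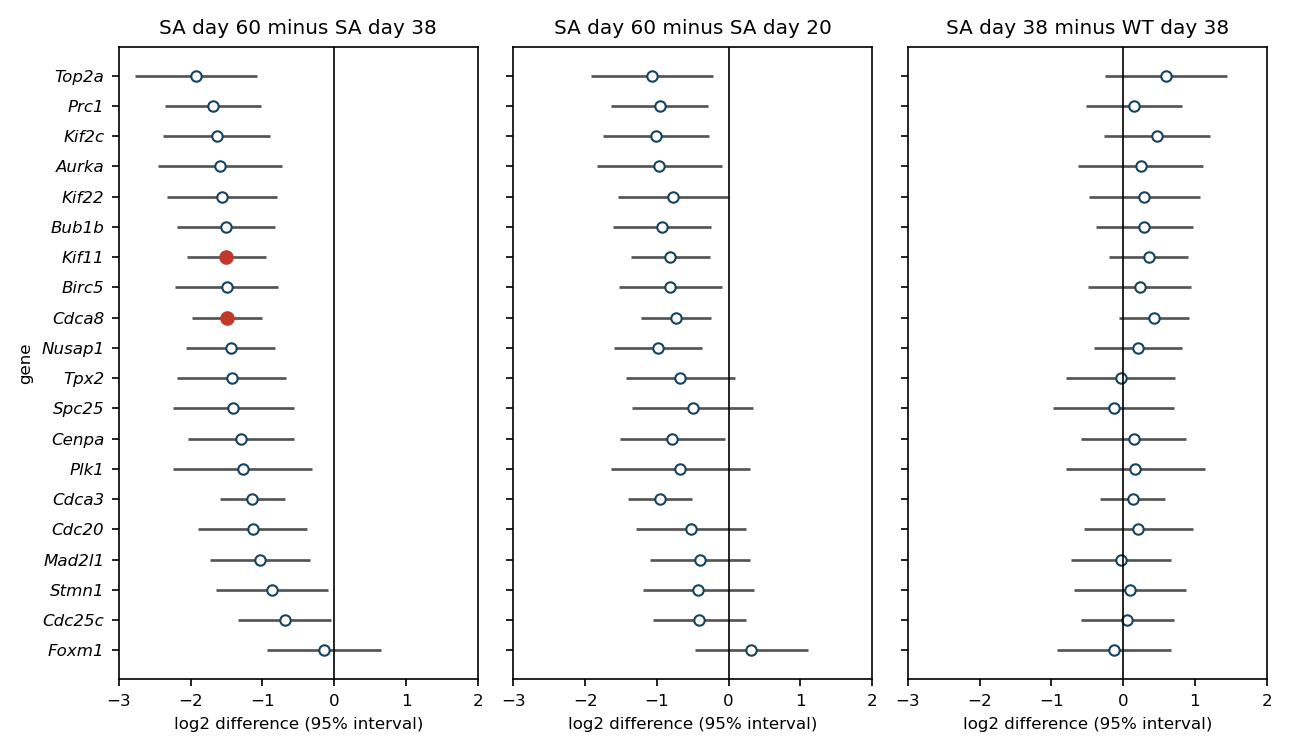
Log2 difference with its 95% interval for 20 mitosis genes in 3 comparisons, ordered by SA day 60 minus SA day 38; red points passed an adjusted p of 0.05. The intervals of 19 genes lie below 0 on the left, those of 12 lie below 0 in the middle, and all 20 include 0 on the right.

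Between SA and WT tumours at day 38 the mitosis genes were close. Of the 20, 0 passed the limma test at an adjusted p of 0.05, where 0.06% of all genes did, and 0 passed at an unadjusted p of 0.05 in either direction, where 6.23% of all genes were higher and 7.87% lower. The difference was above 0 for 16 of 20, against 47% of all genes, and its median was 0.19, against -0.02 for all. Both SA arrays lay above both WT arrays for 8 of 20, against 24.1% of all genes, and below for 0, against 30.1%. Top2a had the largest value, 0.60 (95% interval -0.25 to 1.44), followed by Kif2c at 0.48 (-0.27 to 1.22) and Cdca8 at 0.43 (-0.06 to 0.91, limma adjusted p = 0.398). Spc25 at -0.13 (-0.97 to 0.71), Foxm1 at -0.13 (-0.92 to 0.67) and Tpx2 at -0.03 (-0.79 to 0.72) were lowest. Every interval of the 20 included 0, and those of Top2a, Kif2c, Plk1, Aurka and Kif22 also reached past 1 log2 unit higher in SA. The median depended on which SA day 38 array was used: it was 0.02 without replicate 2 and 0.42 without replicate 1.

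Within SA tumours, day 38 lay above day 20 for all 20 genes, against 51.1% of all genes, with a median difference of 0.63, against 0.01 for all. None of the 20 passed the limma test at an adjusted p of 0.05, where 0.0172% of all genes did, and 6 were higher at an unadjusted p of 0.05, against 4.77% of all genes. Both day 38 arrays lay above both day 20 arrays for 11 of 20, against 18.7% of all genes. Spc25 had the largest difference, 0.90 (SE 0.35, limma adjusted p = 0.436), then Top2a at 0.86 (SE 0.35, limma adjusted p = 0.461) and Kif22 at 0.79 (SE 0.32, limma adjusted p = 0.456). The smallest p was that of Cdca8, at 0.76 (SE 0.20, limma adjusted p = 0.304). The median was 0.22 without SA day 20 replicate 1 and 1.05 without SA day 20 replicate 2, so its size depended on which day 20 array was used.

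SA day 60 against SA day 20 compares groups of the same sex pattern. The genes were lower at day 60 for 19 of 20, against 46.5% of all genes, and the median difference was -0.78, against 0.03 for all. None of the 20 passed the limma test at an adjusted p of 0.05, and 0% of all genes did. At an unadjusted p of 0.05, 12 of 20 were lower, against 9.68% of all genes, and both day 60 arrays lay below both day 20 arrays for 14 of 20, against 22.7%. Top2a differed by -1.07 (SE 0.35, limma adjusted p = 0.152), Kif2c by -1.02 (SE 0.31, limma adjusted p = 0.137) and Nusap1 by -0.98 (SE 0.26, limma adjusted p = 0.114). Cdca3 had the smallest p, at -0.96 (SE 0.19, limma adjusted p = 0.0913), and Foxm1 alone lay above 0, at 0.32 (SE 0.33, limma adjusted p = 0.593). The median was -1.17 without SA day 20 replicate 1 and -0.37 without SA day 20 replicate 2.

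The mean of SA days 20 and 60 was also set against WT, which again joins male patterns but sets days on either side of 38 against day 38. All 20 genes lay below 0, against 49.5% of all genes, with a median of -0.76, against 0.01 for all. None passed the limma test at an adjusted p of 0.05, where 3.46% of all genes were called lower and 3.1% higher. At an unadjusted p of 0.05, 16 of 20 were lower, against 14% of all genes, and all 4 SA arrays lay below both WT arrays for 8 of 20, against 18.1%. Spc25 differed by -1.29 (SE 0.30, limma adjusted p = 0.0561), Tpx2 by -1.13 (SE 0.27, limma adjusted p = 0.0595) and Prc1 by -1.05 (SE 0.24, limma adjusted p = 0.0541). A test across the 4 groups at once, limma's moderated F, called 0 of the 20 genes, where 0.283% of all genes passed. At an unadjusted p of 0.05 it took 16 of 20, against 30.8% of all genes, and its smallest adjusted p was that of Cdca8 (limma, 0.0551).

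The 10 genes below the filter held no usable comparison. They were Ccna2 and Ccnb2, cyclins that drive Cdk1 and Cdk2; Bub1, Ttk and Nek2, kinases of the checkpoint and centrosome; Kif20a and Cenpe, kinesins of the midzone and kinetochore; Ube2c, the ubiquitin carrier of mitotic exit; Hmmr, a spindle protein; and Ect2, which starts cytokinesis. Their means over the 8 arrays ran from 6.05 for Ccnb2 to 6.92 for Ube2c, below the filter level of 7.24, and single arrays ran from 4.62 to 7.30. Levels of different probes cannot be ranked against each other, so a low reading does not show that these genes were less active than those above the filter.

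Where a gene above the filter had further probes above it, these were read for the same comparison. The SA day 60 minus day 38 differences of the 4 Cdc20 probes were -1.14, -1.23, -1.18 and -0.59, and those of the 3 Birc5 probes -1.50, -1.79 and -1.78. The 2 Cdca3 probes gave -1.14 and -1.11 and the 2 Spc25 probes -1.40 and -1.75. Every one of these had the sign of the probe used. The 2 Cdc25c probes above the filter gave -0.69 and -1.36, and another, below it, gave 0.48.

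Neighbouring parts of the cell cycle program were read from lists of named genes, chosen with earlier results of these data known. Of 78 other mitosis genes, 59 were named by a probe and 51 passed the filter; 5 of the 51 were lower at SA day 60 than at day 38 at an adjusted p of 0.05, against 0.377% of all genes, and 0 higher, against 0.712%. The largest differences among the 5 were those of Ndc80 at -1.63 (SE 0.24, limma adjusted p = 0.0447) and Cenpi at -1.58 (SE 0.19, limma adjusted p = 0.0420), both kinetochore proteins. Cenpk, another centromere protein, gave -1.58 and the chromokinesin Kif4 -1.37. The median of the 51 was -0.80, and 28 were lower at an unadjusted p of 0.05, against 11% of all genes. Cenpi and Ckap5, a microtubule polymerase, were also lower in SA days 20 and 60 than in WT, by -1.03 (limma adjusted p = 0.0293) and -0.65 (limma adjusted p = 0.0481). These were 2 of the 51, near the 3.46% of all genes called lower in that comparison, so the count is no result about the list.

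Of 43 S phase genes, 34 passed the filter, and 1, the cyclin Ccne2, was lower at SA day 60 than at day 38, by -1.41 (SE 0.20, limma adjusted p = 0.0447), where 0.377% of all genes were called lower. All 34 were below 0, against 46.3% of all genes, with a median of -0.61. Against day 20 the median of the S phase genes at day 60 was -0.15, where that of the mitosis genes was -0.78. Ccne2 was also lower in SA days 20 and 60 than in WT, by -0.82 (limma adjusted p = 0.0476), as 1 of the 34, where 3.46% of all genes were called lower. Of 10 promoter regulators past the filter, limma called 0 at day 60 against day 38. The list held DREAM and MuvB genes and also the NF-Y subunits Nfya, Nfyb and Nfyc. At an unadjusted p of 0.05, 3 were lower, against 11% of all genes, and 1 higher, against 15.1%. Of these 10, 6 were below 0, against 46.3% of all genes, and the median was -0.14. Rbl1, the pocket protein p107, gave -0.92 (limma adjusted p = 0.0516) and Tfdp1, a partner of E2F factors, -0.83 (limma adjusted p = 0.0659). E2f5, a repressor E2F, was lower in SA days 20 and 60 than in WT, by -0.71 (SE 0.14, limma adjusted p = 0.0419), as 1 of the 10, where 3.46% of all genes were called lower.

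Markers of cells that a whole melanoma can hold differed between the same groups. Of 14 hair follicle markers named by a probe, 12 passed the filter (not Krt25 and Padi3), and the summed intensity of all 14 was 62100 to 151600, 64710 to 253000 and 10600 to 20170 in SA tumours at days 20, 38 and 60, and 84190 to 100800 in WT tumours. The hair keratins past the filter had their lowest group mean at day 60, as did Msx2 and Shh and most mitosis genes. Lef1 and Hoxc13 did not, with 7.77 and 8.69 at SA day 60 against 7.24 and 8.59 in WT. Krt27 differed by -3.88 between SA days 60 and 38 (limma adjusted p = 0.0552) and Krt33a by -3.85 (limma adjusted p = 0.0579), and by limma 0 of the 12 were called, with 6 lower at an unadjusted p of 0.05, against 11% of all genes. The part of hair follicle cells in the mitosis result was not tested. As mean deviation over the genes of a list, hair markers had -0.12 and 1.0 in replicates 1 and 2 at SA day 20, where the mitosis genes had -0.45 and 0.28. At SA day 38 hair markers had -0.25 and 1.96 and the mitosis genes 0.31 and 0.74, and at SA day 60 they had -1.79 and -1.17 and the mitosis genes -0.93 and -0.64. In WT hair markers had 0.06 and 0.30 and the mitosis genes 0.36 and 0.32. In each SA group the replicate with more hair signal also had the higher mitosis genes, and in WT it did not.

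**Figure D5:**
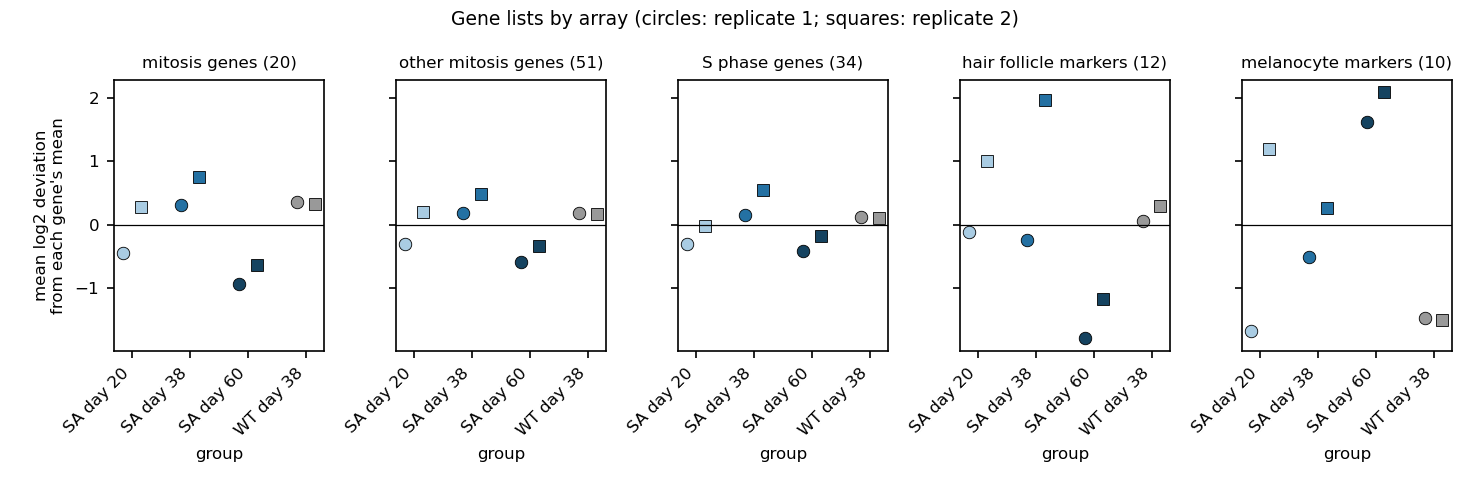
Mean log2 deviation from each gene's mean over 8 arrays, per array, for the 20 mitosis genes, 51 other mitosis genes, 34 S phase genes, 12 hair follicle markers and 10 melanocyte markers. The mitosis and hair panels are lowest at SA day 60, while melanocyte markers are highest there.

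Melanocyte markers ran the other way between SA days 38 and 60. Of 11 named by a probe, 10 passed the filter (not Trpm1), and the summed intensity of all 11 was 31310 to 156200, 48250 to 72470 and 177400 to 215100 in SA tumours at days 20, 38 and 60, and 21640 to 22690 in WT tumours. The pigment enzyme gene Dct had 15.93 ± 0.22 at SA day 60 and 12.69 ± 0.12 in WT tumours (log2, SD, n = 2 each), far above the filter level in both. Its SA day 60 value lies near the top of the intensity range, so the difference may be understated. Mitf, the lineage's master regulator, was higher at SA day 60 than at day 38 by 2.45 (SE 0.33, limma adjusted p = 0.0420). At day 20 the 2 SA arrays differed most, at -1.68 and 1.20 mean deviation. Replicate 2, with the higher melanocyte signal, also had the higher hair follicle signal and the higher mitosis genes. Melanocyte markers had -0.51 and 0.25 at SA day 38, 1.63 and 2.09 at SA day 60, and -1.47 and -1.51 in WT. In each SA group the replicate with more melanocyte signal had the higher mean of the mitosis genes. In WT both gaps were small and the melanocyte measures disagreed. There replicate 1 had the higher mean deviation and the higher mitosis mean, and replicate 2 the higher melanocyte sum (22690, against 21640). The match of replicates was thus not particular to hair markers. The part of melanocytes in the mitosis result was not tested.

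Other tissues differed too. The summed intensity of 16 skeletal muscle markers was 37220 to 270600 at SA day 60, against 366800 to 563300 at SA day 38 and 92180 to 102700 in WT. That of 14 fat markers, 12 of them past the filter, was 28220 to 30620 at SA day 60, against 72070 to 87640 at SA day 38 and 9424 to 13130 in WT. The 15 keratinocyte markers, 14 of them past the filter, summed to 360400 to 383800 at SA day 60, against 323800 to 343300 at SA day 38. Of these, Krt14, Krt10 and Lor had mean log2 intensities of 16.09, 16.10 and 16.10 at SA day 60. At SA day 38 they had 16.10, 16.09 and 16.01. Such values lie near the top of the intensity range, so the sum shows little of how keratinocyte signal differed. The 15 myeloid markers summed to 145500 to 178800 at SA day 60, against 190200 to 200500 at SA day 38, and 10 endothelial markers to 23990 to 27940, against 21980 to 22610. Fibroblast, lymphocyte and erythroid sums overlapped between those groups. As mean deviation, fibroblast markers had -0.37 and -0.50 at SA day 60 and 0.21 and -0.17 at SA day 38, which did not overlap. The part of these tissues in the mitosis results was not tested.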

How the data were processed

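RNA of 8 samples of whole melanoma was measured on Illumina bead arrays. The table of deposited values gave linear intensities for 25697 probes (183.9 to 71767). Array medians of 409.3 to 410 were read as normalization between arrays by the authors; per the submitters' processing notes GenomeStudio 1.8 was used. Another table's 16 columns (8 signal, 8 detection), headed by slide position, tie to no sample and were not used. Background was corrected with normexp in limma (offset 16) and the values were put on the log2 scale. Probes with a mean above the 40th percentile (7.24) were kept and the brightest stood for each gene, which left 11661 tests, 10771 with a gene name. The platform annotation gave 23978 probes 1 symbol, 0 several and 1719 none. limma 3.58.1 in R 4.3.3 (lmFit, eBayes) fitted 1 mean per group to all 8 arrays, with 4 residual and 2.49 prior degrees of freedom, and Benjamini-Hochberg adjustment ran over all tests. The fit was tested on simulated data. Log2 values near background understate changes, and 8 arrays limit the precision.

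The members and lists were chosen with earlier results of these data known. Values on every array are given for main role genes, the 6 smallest F p-values and the 3 largest rises and falls of each comparison. Of other lists, up to 4 called genes or the 2 with the smallest p are named. The markers Dct, Krt14, Krt10, Lor, Msx2, Shh, Lef1 and Hoxc13 and the NF-Y subunits were named outside that rule. Promoters are those of the 6, and that of Ccnb1, not analysed here, is not shown. The labels' genotype field was followed over their treatment protocol, which writes Ifnar1-/- where the field has Ifnar1SA. An item of the mouse model is not reported here.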

Additional observations from a re-analysis of the deposited data

How the results depend on the processing

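No median of the mitosis genes changed sign under any alternative run, and 0 of them passed under any in SA day 38 against WT, SA day 38 against day 20 or SA day 60 against day 20; the other counts depended on the processing, and the causes were not tested. In SA day 60 against day 38, the main count of 127 genes became 365 without background correction, 332 with a filter at the 60th percentile, 44 with the compared arrays alone, 3 without a filter and 1 with the replicate block. The main count of 2 mitosis genes became 8 without background correction and with the stricter filter, 4 with an offset of 50, array weights or a variance trend, and 0 without a filter, with the compared arrays alone and with the replicate block. Their median was -1.08 without background correction.

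For the mean of SA days 20 and 60 against WT, the main 764 genes became 2072 with array weights, 222 without a filter and 200 with the replicate block. The main 0 mitosis genes became 12 with array weights, 2 with the stricter filter, and 1 without background correction, with averaged probes, with the compared arrays alone and with a variance trend. For the F test the main 33 genes became 1138 with array weights, 420 without background correction, 370 with the stricter filter, 169 with a variance trend, 135 with an offset of 50, 81 with averaged probes, 2 without a filter and 1 with the replicate block. The main 0 mitosis genes became 11 with array weights, 2 with the stricter filter and 1 without background correction. For SA day 38 against WT, 7 genes became 36 with the compared arrays alone, 13 with array weights, 4 without background correction and 1 with the replicate block. For SA day 38 against day 20, 2 genes became 21 without background correction, 15 with the stricter filter, 14 with a variance trend, 11 with averaged probes, 10 with an offset of 50, and 1 with the compared arrays alone or the replicate block.

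The replicate numbers pair nothing in the labels, and the correlation of replicate differences between groups ran from -0.20 to 0.11, so the block was a check only.

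Leaving out each array in turn gave 1 to 930 genes and 0 to 17 mitosis genes for SA day 60 against day 38, with medians of -1.64 to -1.22; 0 to 1248 and 0 to 11 for SA days 20 and 60 against WT, with medians of -0.94 to -0.60; and 1 to 1459 and 0 to 16 for the F test. It gave 1 to 42 genes for SA day 38 against WT, with medians of 0.02 to 0.42; 1 to 46 for SA day 38 against day 20, with medians of 0.22 to 1.05; and 0 to 915 for SA day 60 against day 20, with medians of -1.17 to -0.37. Where that left a lone array, its spread was taken to equal that of the other groups. With 2 arrays a group, sex and day 38 joined, and mixed tissue, the size of each difference is loosely fixed.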
